A study of Rattus norvegicus with 12 samples.

Results

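The let-7 and miR-98 family was measured in the soleus, a slow-twitch muscle of the hind limb, of 12 male Sprague-Dawley rats at 1 year of age. Its members were taken by name, as the rat let-7 and miR-98 guide strands that the array lists: rno-let-7a, rno-let-7b, rno-let-7c, rno-let-7d, rno-let-7e, rno-let-7f, rno-let-7i and rno-miR-98, written below without the rat prefix rno. They are 8 of 677 rat miRNAs on the array, and the naming rule uses no measured value. The comparison asked whether the dam's diet left a difference in the muscle of her grown offspring: 6 rats were offspring of control dams (C73, A110, C60, H10, A89 and A75), and 6 were offspring of dams given a high fat diet while pregnant and lactating (C51, H3, H1, C25, H20 and A37). Per the paper, the high fat diet was rich in saturated fat and sucrose and was begun before mating. The offspring of both groups ate standard chow after weaning. All 12 rats share the strain, sex, age and tissue. The labels do not say which rats were littermates, so the p-values below measure the spread between these 12 rats, some of which may share a dam.

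Each rat's total RNA was labelled with Cy3 and hybridised to 1 Agilent rat miRNA array, so the number of arrays limits the precision. A level is the summed background-subtracted signal of a miRNA's probes, here divided by the array's 75th percentile and brought back to a common scale ("scaled signal", arbitrary units). Between 177 and 220 miRNAs were detected per array and the 75th percentile of the signals ran from 864 to 1911. Muscle miRNAs (miR-1, miR-133a, miR-133b and miR-206) were detected on every array. The 2 slow-muscle miRNAs were miR-499, detected on every array, and miR-208b-3p, which was not. The soleus of rat H3 stood apart from its label: these 2 miRNAs summed to 371 scaled units in it. Their sum was 5085 or more in the other 5 rats of its group and 4588 or more in the control offspring. The main results are therefore given with and without H3. In whole muscle, fewer cells of a type and less of a miRNA per cell cannot be told apart.

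The let-7 miRNAs are among the most conserved miRNAs of animals. A miRNA finds its target mRNAs mainly through its seed, the short stretch after the first base at the 5′ end, so members with one seed can act on overlapping sets of targets, and miR-98 is counted with let-7 for that reason. The family is abundant in differentiated tissue and low in the early embryo, where the RNA-binding protein Lin28 blocks the maturation of its precursors. Its known targets include Hmga2, Ras genes, and parts of the insulin and insulin-like growth factor pathway, which is why it is studied in muscle glucose metabolism.

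The mature sequences show how little the members differ and are therefore given for all 8, 5′ to 3′, with the seed (bases 2 to 8) in capitals; they are the RefSeq entries of the GRCr8 table, in which all 8 names were found.
let-7a: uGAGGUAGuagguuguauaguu
let-7b: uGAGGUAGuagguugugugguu
let-7c: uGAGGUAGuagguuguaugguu
let-7d: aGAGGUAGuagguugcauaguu
let-7e: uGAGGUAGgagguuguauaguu
let-7f: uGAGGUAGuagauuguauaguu
let-7i: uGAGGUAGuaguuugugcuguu
miR-98: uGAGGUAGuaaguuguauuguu
The seed was identical in all 8, and 14 of the 22 positions held one base throughout. Counting positions from 1 at the 5′ end and naming let-7a's base first, a single substitution separated let-7a from let-7c (A19G), from let-7e (U9G) and from let-7f (G12A). let-7b differed from let-7a by A17G and A19G, let-7d by U1A and U16C, and miR-98 by G11A and A19U. let-7i was the most distant from let-7a, with G12U, A17G, U18C and A19U. Whether a probe for one member also takes up a near-identical one was not tested. Of the 693 mature rat miRNAs named in RefSeq, 9 carry this seed, and the one that is no member, let-7g, was not analysed here.

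In the GRCr8 assembly these 8 miRNAs came from 11 loci on 6 chromosomes (10 given as precursor records and let-7b by its mature record), since let-7a, let-7c and let-7f each have more than 1 locus. On the plus strand of chromosome 17, let-7a-1 (chr17:16320133-16320226), let-7f-1 (chr17:16320501-16320589) and let-7d (chr17:16322260-16322357) followed each other within the bounds of the non-coding gene LOC120097935. let-7c-2 (chr7:118683623-118683717) lay 326 bases before the mature let-7b record (chr7:118684044-118684065), and let-7f-2 (chrX:24460045-24460127) lay 520 bases before miR-98 (chrX:24460648-24460755), both within the bounds of Huwe1. Other clusters joined let-7 to miR-99, miR-100 or miR-125 genes. let-7e (chr1:67350229-67350321) lay 95 bases after Mir99b and 353 bases before Mir125a, all within the bounds of Spaca6. let-7c-1 (chr11:29688112-29688205) lay 639 bases after Mir99a within LOC103693508, and let-7a-2 (chr8:50805203-50805298) lay 6828 bases after Mir100 within the bounds of Mir100hgl. let-7i (chr7:60527877-60527961, minus strand) stood alone, within LOC134479799. The table gives gene bounds and not exons, so exonic and intronic positions were not determined.

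All 8 members were detected on 12 of 12 arrays, with a scanner error between 7.17% and 8.45% of the signal. The level of every member overlapped between the diets, and 0 of the 193 miRNAs tested (0%) had diet groups that did not overlap. In control offspring, let-7a ran from 9777 to 12369 scaled units with a median of 11093, and in the high fat group from 6695 to 12132 with a median of 10268. let-7f, which lies beside it on chromosome 17, ran from 9369 to 13012 (median 11234) in control offspring and from 7219 to 11518 (median 10422) in the other group. let-7d, the third of that cluster, ran from 4619.9 to 5631 (median 4825) and from 3391 to 6261 (median 4435), respectively. In all 3, the high fat group reached lower than any control rat, and only for let-7d did it also reach higher.

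let-7b ran from 5622 to 8799.8 scaled units (median 7841) in control offspring and from 3800.0 to 9384 (median 6163) in the high fat group. let-7c ran from 8399.9 to 11366 (median 10075.5) and from 5720.3 to 12043 (median 8485), respectively. For both, the control rats lay inside the range of the high fat group. The same held for let-7e, with 648 to 998 (median 880.0) against 507 to 1066 (median 730.0), and for let-7i, with 4127 to 5227 (median 4958) against 3054 to 5738 (median 4124). miR-98, by contrast, ran from 297 to 419 (median 371) in control offspring and from 275 to 399.7 (median 322) in the high fat group, so that its lower and upper ends were both lower there. Levels are compared within a miRNA only, since different probes do not bind equally well.

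**Figure D1:**
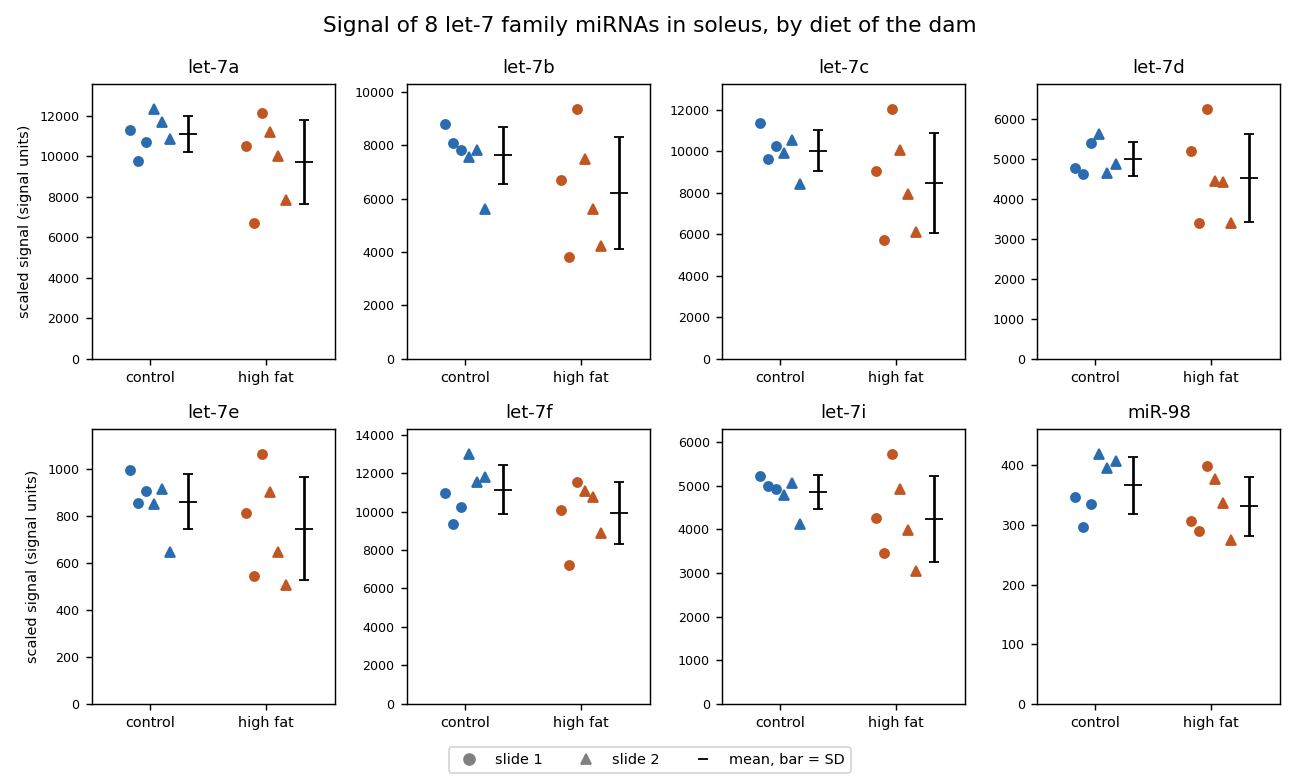
Scaled array signal (arbitrary units, linear axis from 0) of each of the 8 members in each rat, with control offspring on the left and offspring of high fat-fed dams on the right of each panel. Points are rats (circles for slide 1, triangles for slide 2) and the bars give the mean and SD of 6 rats; the 2 groups overlap in every panel, and the spread is wider on the right.

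The mean of every member was lower in the high fat group, and no member differed beyond the spread between rats. The 8 of 8 with a lower mean compare with 154 of all 193 miRNAs tested, or 79.8%, so that the direction was shared with most of the array. let-7b had the largest difference, where control offspring averaged 7629.7 ± 1069.7 scaled units (SD, n = 6) and the high fat group 6206 ± 2097 (SD, n = 6), a log2 difference of -0.35 (SE 0.22, 95% interval -0.83 to 0.12). let-7c followed, at 10018 ± 991 and 8478 ± 2410.0, with a log2 difference of -0.28 (SE 0.19). let-7a had 11127 ± 889.6 and 9739 ± 2070.4, and its log2 difference of -0.22 (SE 0.16) had a 95% interval of -0.56 to 0.12. These 3 differences are each smaller than the SD between the rats of the high fat group.

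let-7e had mean scaled signals of 862 ± 117 in control offspring and 746 ± 219 in the high fat group (log2 difference -0.25, SE 0.20), and let-7i had 4855 ± 384 and 4240.1 ± 978 (log2 difference -0.22, SE 0.16). let-7f (11149.8 ± 1274 and 9923 ± 1617), let-7d (4993 ± 421 and 4520.2 ± 1098) and miR-98 (367 ± 48.0 and 331 ± 49.5) had the smallest log2 differences, of -0.18 (SE 0.14), -0.17 (SE 0.16) and -0.15 (SE 0.14), respectively. In limma with Benjamini-Hochberg adjustment over all 193 miRNAs, the adjusted p was 0.685 for 6 members and 0.700 for let-7d and miR-98. No member had an unadjusted p under 0.05, against 2 of the 193 miRNAs lower in the high fat group (1.04%) and 0 higher, and 0 of 193 (0%) passed after adjustment. Two-sided exact permutation over the 924 assignments of 6 and 6 rats gave p from 0.145 (let-7b) to 0.275 (let-7d). The 12 arrays were on 2 slides with 3 rats of each diet on each, and permuting within slides gave exact p from 0.145 to 0.29. let-7b had log2 differences of -0.41 on slide 1 and -0.30 on slide 2, and miR-98 had 0.017 and -0.32. Without rat H1, the high fat rat with the highest family level, the unadjusted limma p was 0.0296 for let-7b, 0.0362 for let-7c and 0.0457 for let-7i, and the smallest adjusted p of any miRNA was 0.421. In that comparison 15 of 190 miRNAs (7.89%) had an unadjusted p under 0.05, all lower in the high fat group, so such values became more frequent over the whole array. Without H3 the log2 differences of the 8 members were smaller, from -0.23 (let-7b) to -0.090 (let-7f).

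The size of these differences depended on how the arrays were brought to one scale. The median log2 difference of the 8 members was -0.22, beside -0.17 over all miRNAs tested. With signals as listed, without any scaling, the medians were 0.089 and 0.14, and only let-7b had a lower mean in the high fat group, at -0.045 (1 of 8 members, against 20.7% of all miRNAs). After quantile normalization 6 of 8 had a lower mean, against 50.3%, with a member median of -0.016. Measured from the median of all miRNAs, the member median lay at -0.053 in the main scaling, -0.051 without scaling and -0.016 after quantile normalization. The plot of differences by scaling shows the members moving together with the whole array from one scaling to the next.

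**Figure D2:**
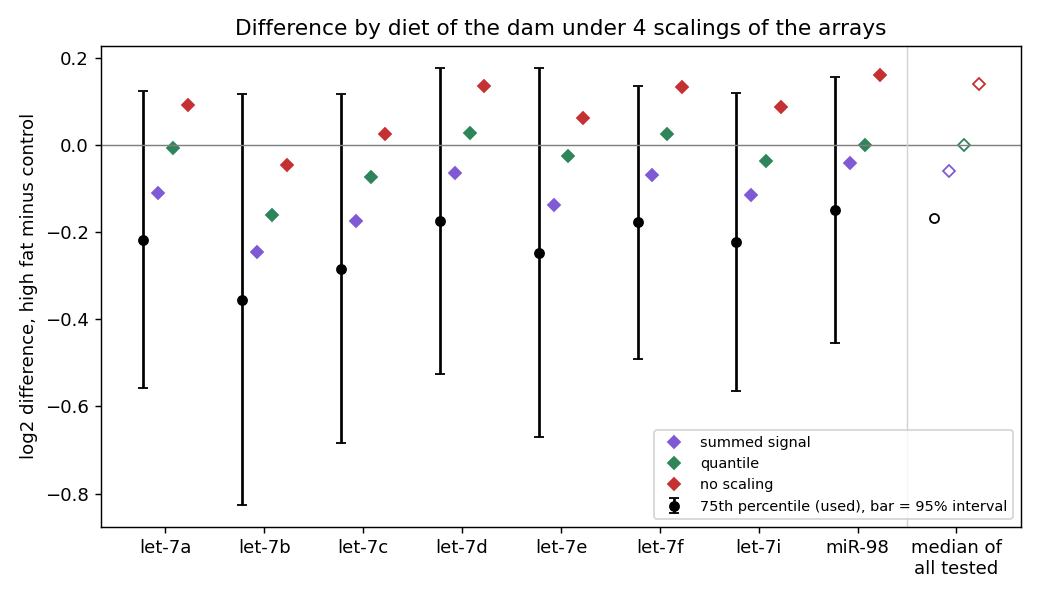
Log2 difference in mean level, offspring of high fat-fed dams minus control offspring, for each of the 8 members under 4 scalings of the arrays, with the median of all miRNAs tested at the right (open symbols). Black points with 95% intervals are the 75th percentile scaling used, where every interval spans 0 and the median member is at -0.22; without scaling (red) 7 of 8 members lie above 0.

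Beside the lower means, the family's scaled signals were more widely spread in the high fat group. The SD of the log2 level was larger in that group for 8 of 8 members, and for 119 of the 162 miRNAs detected on all arrays (73.5%). For let-7a it was 0.12 in control offspring and 0.33 in the high fat group, for let-7d 0.12 and 0.35, and for let-7i 0.12 and 0.33. miR-98 had nearly equal SDs of 0.19 and 0.21, and let-7f had 0.17 and 0.25. The median over the members was 0.16 and 0.34, beside 0.27 and 0.38 over the 162 miRNAs. With all 12 rats, the member median was below that of the 162 miRNAs in both groups. Without H3 the SD of the high fat group was larger for 7 of 8 members, against 58% of the 162 miRNAs. The exception was let-7f, at 0.17 in control offspring and 0.15, and the high fat median was 0.33 over the members and 0.29 over the 162 miRNAs, so that the members were then the more spread. The difference in spread was not tested.

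The 8 members moved largely together from rat to rat, as the plot of deviations by rat shows. The geometric mean of their scaled signals ran from 3660.5 to 4298 (median 4115) in control offspring, and the high fat group spanned 2580 to 4709 (median 3558). On the log2 scale the family mean had an SD of 0.095 in control offspring and 0.34 in the high fat group, or 0.30 without H3. In scaled signal H3 and A37, both offspring of high fat-fed dams and on different slides, were the 2 lowest of 12 rats for all 8 members. Their members lay on average 0.53 and 0.48 log2 units below the 12-rat mean. The place of A37 depended on the scaling. As listed, its let-7f signal was 12517, inside the control range of 6530 to 14166. At the other end, H1, also of the high fat group, was the highest rat for 5 members and H10, a control rat, for the remaining 3. The other miRNAs of these rats shared part of this, with a median deviation of -0.21 in H3, -0.27 in A37 and 0.22 in H1. Slow-muscle and vessel miRNAs moved with the low family level in H3 and their part in it was not tested: the vessel list (miR-126, miR-143 and miR-145, all 3 detected on every array) summed to 4863 scaled units in H3, against 8811 to 11719 in the other high fat rats and 10082 to 12000 in control offspring. The blood list (miR-451, miR-144 and miR-223, all 3 detected on every array) was highest of the 12 rats in H3, at 3720.3, against 1029 to 3107 in control offspring, and its part was not tested either. In the control rats A75 and A110 the members went both ways, with deviations from -0.28 to 0.24 and from -0.22 to 0.28. The members also went both ways in the control rats C60 (-0.046 to 0.23) and A89 (-0.0092 to 0.23). Of the high fat group, C51 (-0.17 to 0.15), C25 (-0.079 to 0.20) and H20 (-0.28 to 0.048) were mixed as well.

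**Figure D3:**
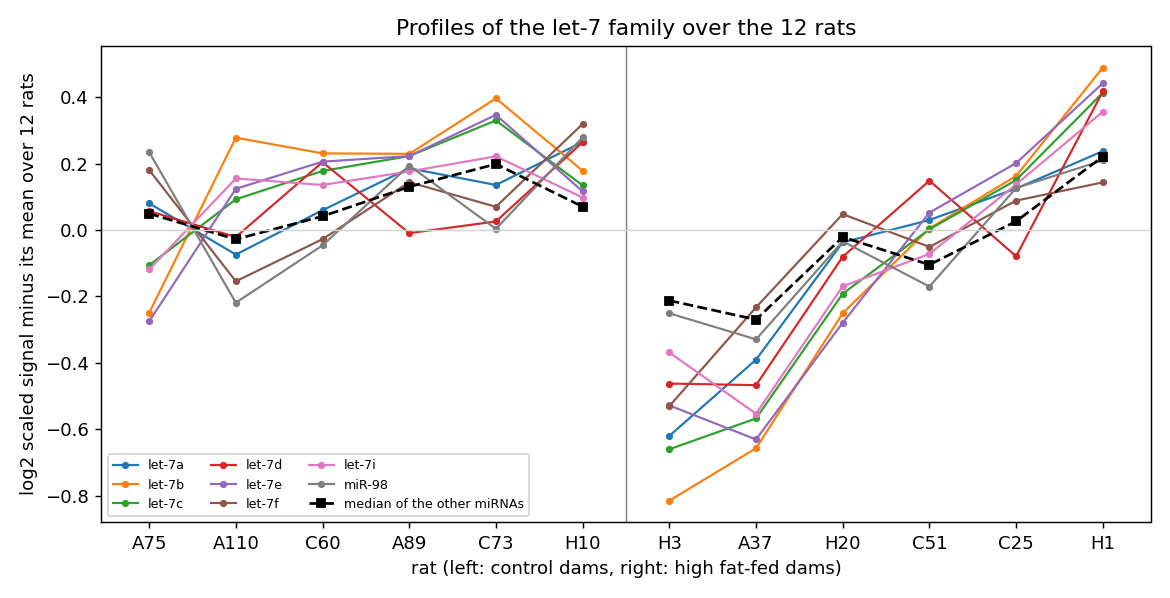
Deviation of each member's log2 scaled signal from its own mean over 12 rats, by rat, with control offspring on the left and offspring of high fat-fed dams on the right, each ordered by the family mean; the dashed black line is the median of the other miRNAs detected on all arrays. Every member is below its mean in H3 and A37 and above it in H1, H10 and C73. The members go both ways in the other rats.

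The 8 members together gave a share of the summed signal (over the miRNAs detected on the same array) that does not depend on the scaling. Control offspring had 10.1% ± 1.38 (SD, n = 6), between 7.89% and 11.7%, and the high fat group had 9.32% ± 1.67 (SD, n = 6), between 6.80% and 11.9%. The ranges overlapped. H3 had the lowest share of the 12 rats, followed by the control rat A75 (7.89%) and then by A37 (8.67%). Without H3, the high fat group had 9.83% ± 1.25 (SD, n = 5). The SD of its share was thus above that of control offspring with H3 and below it without H3.

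How closely 2 members moved together was measured by the SD, over the 12 rats, of the difference between their log2 levels, in which the scaling of an array cancels. Over the 28 pairs of members this SD had a median of 0.18 and ran from 0.078 to 0.34. All 13041 pairs among the 162 miRNAs had a median of 0.46, and 2.05% of them had an SD at or below the member median. Without H3 the median was 0.18 over the member pairs and 0.38 over all pairs. These pairs share arrays and scanner, and the values are a description. The SD of a difference also depends on each miRNA's own spread, and the pairs were not matched for spread or signal. The members' own SD over the 12 rats ran from 0.21 (miR-98) to 0.41 (let-7b), against a median of 0.34 over the other miRNAs detected on all arrays. The closest pair was let-7c and let-7e, at 0.078, which differ by 2 bases, followed by let-7a and let-7f at 0.090 and let-7b and let-7c at 0.098, each pair 1 base apart. The least alike were let-7b and miR-98, at 0.34. The number of differing bases did not order the pairs: the median SD was 0.12 for 4 pairs with 1 differing base, 0.23 for 7 pairs with 2, 0.18 for 9 pairs with 3 and 0.20 for 6 pairs with 4.

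**Figure D4:**
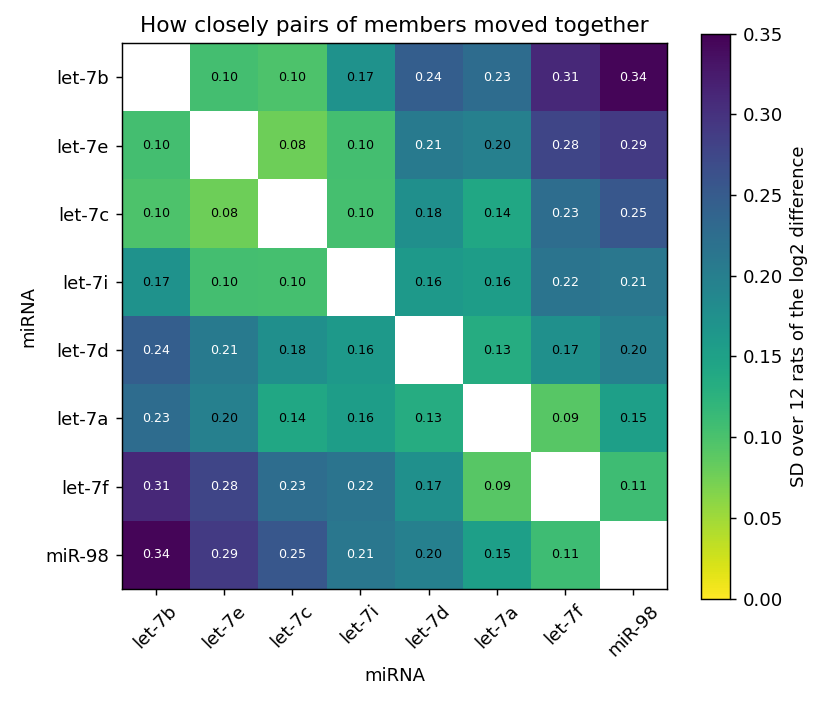
SD over 12 rats of the difference between the log2 levels of 2 members, for the 28 pairs of the 8 members (colour and number in each cell, log2 units). Small values mark pairs that kept a constant ratio from rat to rat, down to 0.078 for let-7c and let-7e, and the largest value is 0.34 for let-7b and miR-98.

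Measured against the mean of the other 7 members, the 2 diets overlapped for every member. The difference, high fat minus control, ran from -0.14 log2 units for let-7b to 0.091 for miR-98. Without H3 it ran from -0.094 (let-7b) to 0.064 (let-7f). Set against each other in this way, some members must lie above and others below, by slide as by diet. The means of let-7a, let-7f and miR-98 relative to the other members were higher on slide 2, by 0.14, 0.26 and 0.23 log2 units, respectively. let-7b, let-7c, let-7d, let-7e and let-7i were lower there, with differences from -0.19 (let-7e) to -0.068 (let-7d). The first 3 have 7 or 8 G or C bases in the mature sequences given above and the other 5 have 9 or 10. let-7a, with 8, is next to the members with 9, and any link of these counts to the slide difference was not tested. Without H3 the slide difference of each of the 8 kept its own sign. The rats of the 2 slides overlapped for every member, the difference was not tested, and each slide held both diets equally.

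**Figure D5:**
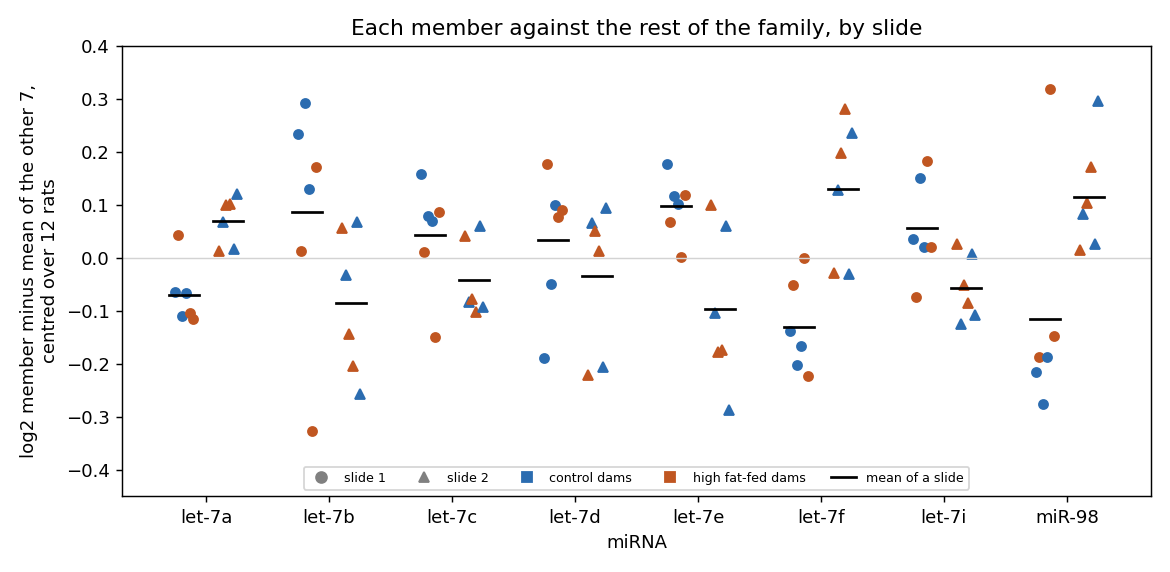
Log2 level of each member minus the mean of the other 7, centred on its mean over 12 rats, by slide; points are rats, coloured by the dam's diet. The slide means (lines) of let-7a, let-7f and miR-98 are higher on slide 2, those of let-7b, let-7c, let-7d, let-7e and let-7i are lower there, and the slides overlap for every member.

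Of the 154 other miRNAs detected on all arrays, those closest to the family's mean level over the 12 rats were miR-125a-5p, with an SD of the log2 difference of 0.14, and miR-99b, with 0.15. Their genes flank let-7e on chromosome 1. Neither shares the let-7 seed, as their RefSeq sequences show with bases 2 to 8 in capitals.
miR-125a-5p: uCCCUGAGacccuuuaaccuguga
miR-99b: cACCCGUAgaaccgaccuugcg
miR-342-3p, miR-103 and miR-181a came next, each at 0.16, and the median over the 154 was 0.33. The members themselves lay between 0.088 (let-7a) and 0.20 (miR-98) from the mean of the other 7, so the closest of the other miRNAs were within the range of the members. This order rested on H3: without that rat, miR-25 (0.084) and miR-196b (0.096) came closest, and miR-125a-5p and miR-99b ranked 13 and 15 of 154, both at 0.15.

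The 5 miRNAs encoded near let-7 genes had a lower mean in the high fat group, as did 154 of all 193 miRNAs tested (79.8%). None of the 5 passed the test. miR-125a-5p ran from 224 to 339 scaled units (median 308) in control offspring and from 187 to 312 (median 244) in the high fat group, a log2 difference of -0.26 (SE 0.17). miR-99b had means of 75.8 ± 11.4 (SD) and 66.2 ± 14.4, and its log2 difference was -0.21 (SE 0.17). miR-99a, encoded beside let-7c-1, had 2663 ± 247 and 2331 ± 460.2, with a log2 difference of -0.21 (SE 0.15). The genes of miR-125b-5p lie farther off, 44382 bases after let-7c-1 and 44737 bases after let-7a-2. miR-125b-5p had 5625 ± 1149.9 and 4448 ± 1279, with the largest log2 difference of the 5, -0.36 (SE 0.20). miR-100, encoded before let-7a-2, had 448 ± 77.7 and 399.6 ± 77.7, with a log2 difference of -0.17 (SE 0.16). The adjusted p in limma was 0.700 for miR-100 and 0.685 for the other 4. Without H3 the log2 differences ran from -0.32 (miR-125b-5p) to -0.11 (miR-100), with limma adjusted p of 0.878 for all 5.

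The opposite strands of the let-7 and miR-98 precursors, which are mostly discarded when the guide strand is loaded, were near or below detection. The array lists 9 such star strands, of which let-7a-1* and let-7d* were detected on all 12 arrays, let-7b* on 10 and let-7c-1* on 1, and the remaining 5 on none. For let-7a-1*, control offspring averaged 17.5 ± 3.50 scaled units (SD, n = 6) and the high fat group 14.3 ± 5.24 (SD, n = 6), a log2 difference of -0.36 (SE 0.25, limma adjusted p = 0.685). With the slide as a block its unadjusted limma p was 0.0410 and its adjusted p 0.640. In that fit 8 of 193 miRNAs had an unadjusted p under 0.05. Exact permutation gave let-7a-1* a p of 0.025 within slides and 0.225 over all assignments of the rats. Its log2 difference was -0.57 on slide 1, which held H3, and -0.14 on slide 2. Its scaled signal ran from 7.44 to 15.5 on slide 1 and from 17.2 to 22.2 on slide 2. With signals as listed, without any scaling, its log2 difference was -0.049. let-7d* had 12.1 ± 3.36 and 11.3 ± 2.15, with a log2 difference of -0.078 (SE 0.20, limma adjusted p = 0.913). let-7b* had a log2 difference of -0.23 (SE 0.51, limma adjusted p = 0.891), with undetected values set to the floor of 5.17 scaled units. H3 was the lowest rat for let-7a-1* and let-7d*, and without it the log2 differences were -0.19 for let-7a-1*, -0.40 for let-7b* and 0.018 for let-7d*. The 4 miRNAs listed as miR-3596a to miR-3596d, rat entries known as antisense to let-7 genes, were detected on no array.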

How the data were processed

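Total RNA from the soleus of 12 rats was hybridised by the authors to 1-colour Agilent 8x15K rat miRNA arrays. The deposited intensity of each miRNA is the scanner software's total gene signal (background-subtracted, summed over probes, listed as 0.1 where not detected), with no scaling between arrays per the file headers. The authors' value table held the same intensity values (largest difference 0).

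Here, 22 control rows were left out. Signals were divided by each array's 75th percentile over the 162 miRNAs detected on all arrays, multiplied by 1354 (the geometric mean of these percentiles), given a lower limit of 5.17 and log2-transformed. Diets were compared with limma 3.58.1 in R 4.3.3 (lmFit and eBayes) on the 193 miRNAs that 6 or more arrays detected, taking 0.05 as the threshold after Benjamini-Hochberg adjustment, and by exact permutation of the rats, over all arrays and within slides. The limma step was tested on simulated data. Sequences and positions were read from RefSeq tables of GRCr8, matched by name. Named were all 8 members, their star strands, the miRNAs encoded near them and the 5 miRNAs most like the family mean. Members and lists were chosen with earlier results of these data known. Alternatives were other scalings, floors and detection filters, array weights, slide or label letter as a block, the methods' t-test and leaving out each rat.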

Additional observations from a re-analysis of the deposited data

Results flagged for a closer look

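Among control offspring, rat A75 stood apart at the lower end for 3 members. Its scaled signal was 5622 for let-7b, where the other 5 control rats ran from 7566 to 8799.8. It was 648 for let-7e, against 850.4 to 998, and 4127 for let-7i, against 4797 to 5227. These 3 were found among 36 groups of 6 rats examined (members, star strands and neighbouring miRNAs), where chance gives about 1 in 20, or 1.8. The members move together, so the 3 are not independent.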

How the results depend on the processing

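Under 24 alternatives, 12 of which left out 1 rat each, no member and no other miRNA passed an adjusted p of 0.05, and 182 of 192 member differences kept their direction. The higher floor, the detection filters, the slide block, the methods' t-test and the authors' value table left every member difference unchanged. These alternatives could therefore not turn a direction. All 10 turned differences came from another scaling or from none. Without scaling, 1 member had a lower mean in the high fat group and 7 turned to higher: let-7a 0.091, let-7c 0.025, let-7d 0.14, let-7e 0.062, let-7f 0.13, let-7i 0.086 and miR-98 0.16 (log2). Quantile normalization turned let-7d (0.026) and let-7f (0.025), and the 75th percentile over all miRNAs turned miR-98 (0.022). The number of members with an unadjusted p under 0.05 ran from 0 to 3 when 1 rat was left out, with 3 without H1, where 15 of 190 miRNAs (7.89%) had one, against 1 to 7 miRNAs in the other 11 such fits; the cause was not tested. The let-7b difference ran from -0.49 (without H1) to -0.23 (without H3), and that of let-7a from -0.29 (without H1) to -0.12 (without H3). No paired analysis was possible because the labels give the diets no shared replicate numbers. Signals near the floor limit the star strands.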
